A study of Mus musculus with 4 samples.

Results

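The 10 genes described here encode the subunits of the transcription factor NF-kappa-B (Nfkb1, Nfkb2, Rel, Rela and Relb), proteins of the I-kappa-B family (Nfkbia, Nfkbib, Nfkbie and Nfkbiz) and Malt1, a protease that links antigen receptors to the pathway. They were chosen by name, and each was read from the probe set that carried that gene symbol alone in the annotation of the array. Of the 10 genes, 9 were measured in this way, among 19938 genes in all, and each of the 9 had a single probe set. Nfkb1 was not analysed here, because no probe set carried its name in the annotation used. The genes were compared between 2 mouse cell lines, TS1 and TS2, whose stated source is CD4+ T lymphocytes. Both were grown in Iscove-Dulbecco's medium with murine interleukin-9, a growth factor for some T cell lines, and neither received another treatment. For each line, RNA from 2 biological duplicates (A and B) was labelled and read on Affymetrix mouse gene arrays, with a separate array for every duplicate. With 1 line of each name, a difference between TS1 and TS2 is a difference between these lines.

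NF-kappa-B proteins bind DNA as dimers. In resting cells I-kappa-B proteins hold most dimers in the cytoplasm, and receptors of antigen, of tumour necrosis factor and of interleukin-1 release them through the I-kappa-B kinase (IKK). In T cells the antigen receptor reaches IKK through a complex that holds BCL10 and MALT1, in which MALT1 is both a scaffold and a protease. NF-kappa-B in turn activates the genes of some of its own subunits and inhibitors, above all Nfkbia, so that the messages of those genes move with the activity of the pathway in many cell types.

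Values are log2 of the normalised array intensity, and differences are TS2 minus TS1 on that scale, so that 1 unit is 2-fold. The standard error (SE), the 95% interval and the p-value of each difference come from a linear model fitted with limma to all 19938 genes, with 2 arrays per line. A gene was called when its p-value, adjusted by the Benjamini-Hochberg method over all genes, was under 0.05. The median intensity of an array lay between 88.6 and 92.5. The replicates are the labels' biological duplicates, and whether they came from separate cultures is not stated beyond that word. The number of arrays limits the precision: in an exact two-sided permutation test, 2 arrays against 2 give no p smaller than 0.333.

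Markers of the labelled cell type were patchy in both lines. Of 14 measured T cell markers, 8 lay below the array median on all 4 arrays, Cd4 and Cd3d among them. Of the 14, limma called 3 higher in TS2, Cd3e, Cd247 and Zap70, and 1 higher in TS1, Lat. This is 28.6%, against 13.5% of all genes. Cd3e stood at 6.45 and 6.41 on TS1 A and B, and 12.74 and 12.53 on TS2 A and B. The summed intensity of the 14 markers was 2840 and 1604 on TS1 A and B, and 11312 and 12956 on TS2 A and B. The brightest genes lead such a sum, so it does not describe the 14 markers as a set. Cd3g alone stood at 10.52 and 6.07 on TS1 A and B, and 10.39 and 11.98 on TS2 A and B. All 6 myeloid markers and 4 of 5 B cell markers lay below the median on every array. Of 6 mast cell markers, 2 lay below it on every array. The brightest, Fcer1a, a chain of the high-affinity IgE receptor, was between 12.69 and 13.08 on the arrays. Of 6 fibroblast markers, 2 lay below it on every array, and Col1a2 and Col3a1 passed it on TS2 A alone. Col1a1 was above the median on all 4 arrays. Pdgfra stood at 6.84 and 7.75 on TS1 A and B, and 5.26 and 5.76 on TS2 A and B. Limma also called 1 B cell marker (Cr2), 1 mast cell marker (Kit) and 1 fibroblast marker (Pdgfra), each higher in TS1. These are 20%, 16.7% and 16.7% of their lists, against 13.5% of all genes, and 0 myeloid markers were called. The part of these markers in the results below was not tested.

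Between the lines, 1 of the 9 measured genes was called, Malt1, which was higher in TS1. This is 11.1% of the 9 genes, against 13.5% of all genes called in either direction, 8.45% called higher in TS1 and 5.05% called higher in TS2. The other genes were not called, and their intervals ran from narrow for Nfkbie and Rela to wide for Nfkbia. For 4 of the 9 genes, Malt1, Nfkbiz, Nfkbie and Nfkbib, no array of one line fell within the range of the other. This is 44.4%, against 58.4% of all genes. An unadjusted p under 0.05 was reached by Malt1, Nfkbiz and Nfkbie, against 29.4% of all genes. The median difference of the 9 genes was 0.018, against 0.013 over all genes. In RNA of whole cultures, fewer cells that express a gene and less RNA per cell cannot be told apart.

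**Figure D1:**
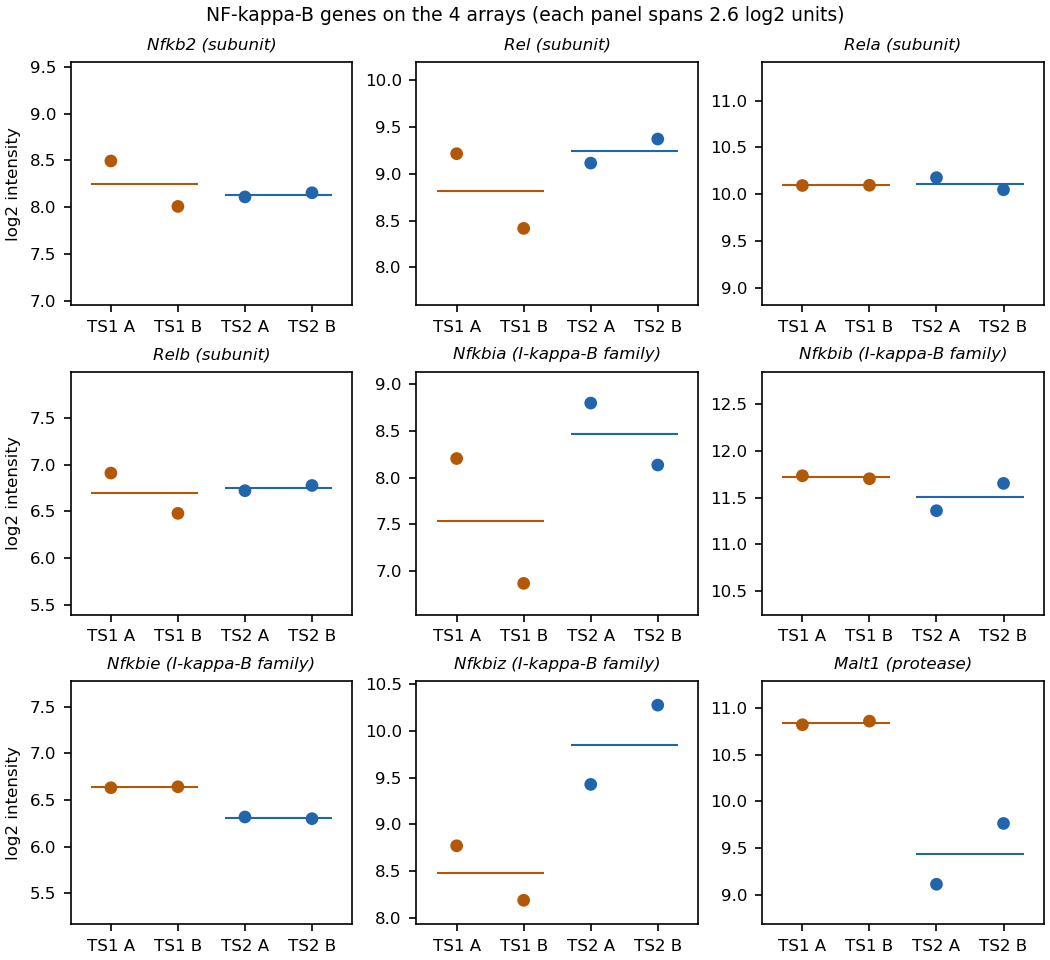
Log2 intensity (vertical axis) of the 9 measured genes on the 4 arrays (horizontal axis), with orange points for TS1, blue points for TS2 and a line at the mean of each line's 2 arrays. Every panel spans the same range of log2 units, and the panels show the wide gap of Malt1 and the split of the TS1 duplicates for Nfkb2, Rel, Relb, Nfkbia and Nfkbiz.

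Malt1 encodes the only paracaspase of mammals, which cleaves brakes of the pathway such as A20, CYLD and RELB. Its log2 intensity was 10.82 and 10.86 on TS1 A and B, and 9.11 and 9.76 on TS2 A and B. Both TS2 arrays lay below both TS1 arrays, and the TS1 duplicates were close while the TS2 duplicates lay 0.65 apart. The TS1 mean was 10.84 ± 0.027 (SD, n = 2), against a TS2 mean of 9.44 ± 0.46 (SD, n = 2). The difference was -1.40 (SE 0.22, 95% interval -1.97 to -0.83, limma adjusted p = 0.0206), which is 2.64-fold higher in TS1. The direction was the same whichever array was left out, with differences from -1.73 to -1.08. In fits with a single TS1 array Malt1 was no longer called, at an adjusted p of 0.0653 when TS1 A was omitted (difference -1.42) and 0.0802 when TS1 B was (difference -1.38).

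None of the 4 measured subunits was called, and 3 of them split the TS1 duplicates. Rela encodes p65, the main activating subunit of the canonical pathway, and had a log2 intensity of 10.09 and 10.10 on TS1 A and B, and 10.18 and 10.05 on TS2 A and B. The 4 arrays were nearly level, and the difference was 0.018 with a 95% interval of -0.22 to 0.26 (adjusted p = 0.933).

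Rel encodes c-Rel, a subunit prominent in lymphocytes. It stood at 9.22 and 8.42 on TS1 A and B, and 9.12 and 9.37 on TS2 A and B. TS1 A lay among the TS2 arrays, and only TS1 B stood lower. The difference was 0.43 (95% interval -0.29 to 1.14, adjusted p = 0.387). It was 0.83 when TS1 A was omitted, where Rel passed the threshold (adjusted p = 0.0491), but 0.028 when TS1 B was (adjusted p = 0.928). The difference of Rel between the lines therefore rested on which TS1 duplicate was used.

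Nfkb2 encodes p100, which is processed to p52 in the non-canonical pathway and holds back RELB until then. Its values were 8.49 and 8.01 on TS1 A and B, and 8.11 and 8.15 on TS2 A and B. Both TS2 arrays lay between the TS1 duplicates, and the difference of -0.12 (95% interval -0.57 to 0.33, adjusted p = 0.719) turned to 0.12 without TS1 A. Relb, the partner of p52, showed the same order of arrays at a lower signal: 6.91 and 6.48 on TS1 A and B, and 6.72 and 6.78 on TS2 A and B. Its difference was 0.055 (95% interval -0.36 to 0.47, adjusted p = 0.868), and it turned to -0.16 without TS1 B. The value of Relb on TS1 B was below the median of that array, and signal over background was not examined.

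Among the I-kappa-B genes, Nfkbia and Nfkbiz had the larger differences and Nfkbib and Nfkbie the smaller ones, and none was called with all 4 arrays. Nfkbia encodes I-kappa-B-alpha, the inhibitor that is degraded and made anew in each round of activation. Its log2 intensity was 8.21 and 6.87 on TS1 A and B, and 8.80 and 8.14 on TS2 A and B. TS1 B stood lowest by more than 1 unit, while TS1 A lay just above TS2 B. The TS1 mean was 7.54 ± 0.94 (SD, n = 2), against a TS2 mean of 8.47 ± 0.47 (SD, n = 2), and the difference was 0.93 (SE 0.48, 95% interval -0.30 to 2.16, adjusted p = 0.279). It was 1.60 when TS1 A was omitted (adjusted p = 0.0535), but 0.26 when TS1 B was (adjusted p = 0.645).

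Nfkbiz encodes I-kappa-B-zeta, an inducible nuclear member of the family that acts as a cofactor at genes such as Il6. It stood at 8.77 and 8.19 on TS1 A and B, and 9.43 and 10.27 on TS2 A and B. Both TS2 arrays lay above both TS1 arrays, with a spread inside each line as well. The difference was 1.37 (SE 0.34, 95% interval 0.51 to 2.23, adjusted p = 0.0611), which is 2.59-fold and missed the threshold. It passed without TS2 A, at 1.80 (adjusted p = 0.0458), and with the dimmest 50% of probe sets left out, at the same 1.37 (adjusted p = 0.0499). Over the arrays left out in turn it stayed above 0, from 0.95 without TS2 B to 1.80.

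Nfkbib and Nfkbie encode I-kappa-B-beta and I-kappa-B-epsilon, further cytoplasmic inhibitors. Nfkbib was 11.73 and 11.70 on TS1 A and B, and 11.36 and 11.65 on TS2 A and B, with both TS2 arrays slightly below the TS1 arrays. Its difference was -0.21 (95% interval -0.53 to 0.11, adjusted p = 0.345). Nfkbie was 6.63 and 6.64 on TS1 A and B, and 6.32 and 6.30 on TS2 A and B. The duplicates of Nfkbie were closer than those of any other measured gene of the 9 in TS2, and its difference was -0.33 (SE 0.085, 95% interval -0.55 to -0.11, adjusted p = 0.0702). Its 2 TS2 values lay below the median of their arrays, and signal over background was not examined.

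**Figure D2:**
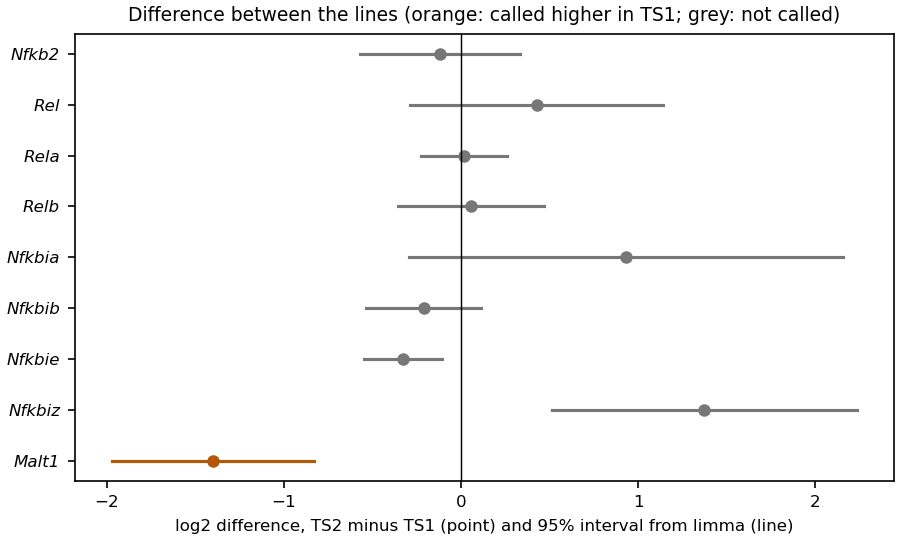
Difference between the lines on the log2 scale (horizontal axis, TS2 minus TS1) for each of the 9 genes (vertical axis), with the 95% interval from limma. Malt1, in orange, is the called gene; the intervals of Nfkbiz and Nfkbie also exclude 0 but their adjusted p-values are 0.0611 and 0.0702.

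The duplicates of TS1 differed for a subset of these genes and not for the rest. On TS1 A, Nfkbia was 2.52-fold higher than on TS1 B, Rel 1.74-fold, Nfkbiz 1.5-fold, Nfkb2 1.40-fold and Relb 1.35-fold. For Rela, Nfkbib, Nfkbie and Malt1 the TS1 duplicates lay within 0.038 of each other. Of the 9 genes, 5 were at least 0.4 higher on TS1 A and 0 were that much higher on TS1 B, against 4.35% and 4.44% of all genes, at a step that was set after the values were seen. The gap of Nfkbia was matched or passed by 0.527% of all genes, and that of Rel by 1.80%. With 1 array per duplicate these gaps have no test.

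The same arrays were set side by side for the targets of the pathway. Of 34 measured textbook target genes of NF-kappa-B, 13 (38.2%) had the higher value on TS1 A, against 44.2% of all genes, and the median of A minus B was -0.044. At least 0.4 more signal on TS1 A was found for 5 of them (14.7%), against 4.35% of all genes, and on TS1 B for 1. Many of the 34 were dim, with 15 left when the dimmest 50% of probe sets were omitted. Of 13 measured receptors and adaptors, 3 were at least 0.4 higher on TS1 A and 2 on TS1 B. Some members of these lists, named after their values were seen, differed between the TS1 arrays. The named genes do not show the balance of the directions, which the counts above give. Tnfrsf9, a co-stimulatory receptor, stood at 12.77 on TS1 A and 9.41 on TS1 B. Il6, an inflammatory cytokine, stood at 8.51 and 5.34, and Il2ra, a chain of the interleukin-2 receptor, at 7.74 and 4.89. In the other direction, and with smaller gaps, Tnfrsf1a, the first receptor of tumour necrosis factor, stood at 9.55 and 10.36 on TS1 A and B. Sod2, a mitochondrial antioxidant enzyme and the 1 target gene counted above on TS1 B, stood at 11.89 and 12.31. Of the 14 T cell markers, 7 had the higher value on TS1 A and 7 on TS1 B. The widest gap among them was that of Cd3g, at 10.52 and 6.07, while Cd3e stood at 6.45 and 6.41 and Zap70, a kinase of the antigen receptor, at 8.36 and 8.77. The part of these genes in the gap of the 5 genes was not tested.

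The TS2 duplicates differed in another way. Nfkbia was 1.58-fold higher on TS2 A, while Nfkbiz was 1.80-fold and Malt1 1.57-fold higher on TS2 B. For Nfkb2, Relb and Nfkbie the TS2 duplicates lay within 0.056 of each other. In 6 of the 9 genes, Nfkb2, Rel, Rela, Relb, Nfkbia and Nfkbib, the wider of the duplicate gaps was larger than the difference between the lines. Nfkbie, Nfkbiz and Malt1 were the exceptions. The share of all genes with such a gap was not computed, so the count cannot be read as particular to these genes.

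**Figure D3:**
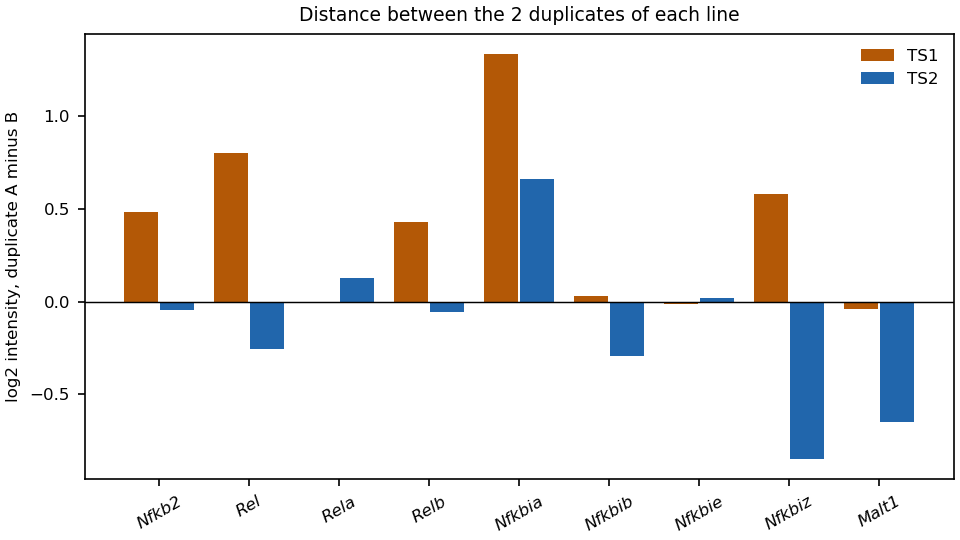
Log2 intensity of duplicate A minus duplicate B (vertical axis) for each of the 9 genes, with orange bars for TS1 and blue bars for TS2, 1 array per duplicate. The TS1 bars of Nfkb2, Rel, Relb, Nfkbia and Nfkbiz stand above 0.4, and those of Rela, Nfkbib, Nfkbie and Malt1 lie near 0.

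**Figure D4:**
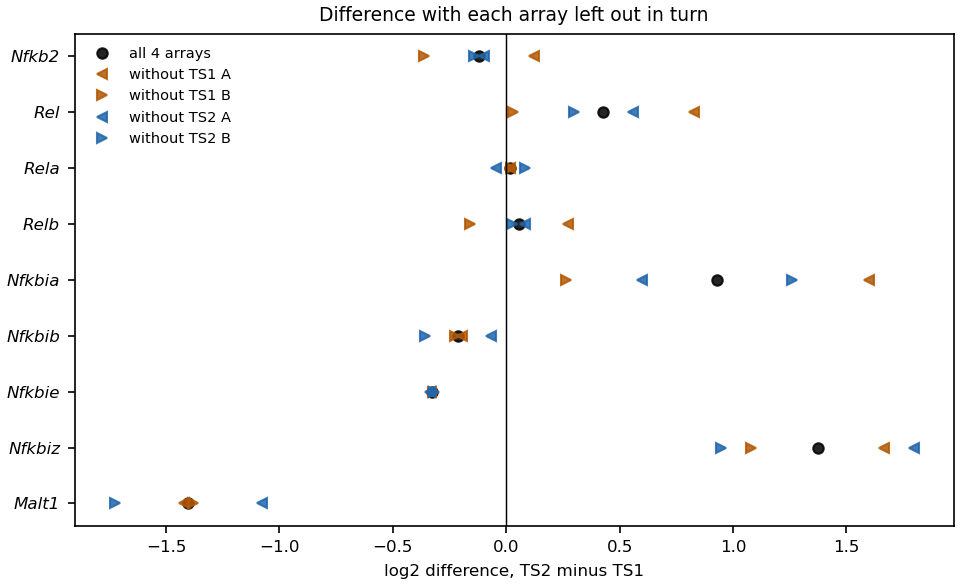
Difference between the lines on the log2 scale (horizontal axis, TS2 minus TS1) with all 4 arrays (black circles) and with 1 array left out (triangles). Malt1 and Nfkbie stay below 0 and Nfkbiz above 0, whereas Nfkb2, Rela and Relb change sign.

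Some of these genes carry the DNA motif that NF-kappa-B binds in their own promoters, and the promoters are shown because the genes that split the TS1 duplicates can be set beside those that did not. RefSeq promoters of assembly GRCm38.p6 were searched for 6 of the 10 genes, Nfkb2, Rel, Rela, Nfkbia, Nfkbib and Nfkbie. Nfkb2 has 3 annotated starts. The selection of these windows left out a whole chromosome, which the counts over all genes kept. No window was searched for Nfkb1, Relb, Nfkbiz and Malt1. The 250 bases before each start were searched on both strands for the kappa-B consensus, which is GGG, a purine, a pair of free bases, a pair of pyrimidines and CC. The consensus was found for Nfkb2, Rel, Nfkbia and Nfkbie and not for Rela and Nfkbib, while 8.23% of all 27025 genes with a promoter, and 7.25% of all windows of this length, hold it. The windows are written 5′ to 3′ along the gene, end at the base before its start, and have every base of a match in capitals.

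The Nfkb2 window shown lies before the first of the 3 starts at chr19:46304487-46304736 on the plus strand. The Rel window lies at chr11:23770970-23771219 on the minus strand and the Nfkbia window at chr12:55492648-55492897 on the minus strand. The Nfkbie window lies at chr17:45555450-45555699 on the plus strand.
Nfkb2: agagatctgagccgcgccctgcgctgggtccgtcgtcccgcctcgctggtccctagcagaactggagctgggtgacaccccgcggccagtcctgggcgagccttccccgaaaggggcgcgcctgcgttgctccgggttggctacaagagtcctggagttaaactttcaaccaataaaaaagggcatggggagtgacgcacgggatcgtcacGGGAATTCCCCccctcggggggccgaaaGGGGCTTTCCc
Rel: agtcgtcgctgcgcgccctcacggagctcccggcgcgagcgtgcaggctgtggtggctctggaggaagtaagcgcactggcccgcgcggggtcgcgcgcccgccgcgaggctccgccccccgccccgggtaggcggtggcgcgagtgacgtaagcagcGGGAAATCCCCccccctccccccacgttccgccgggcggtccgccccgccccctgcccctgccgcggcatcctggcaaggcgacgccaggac
Nfkbia: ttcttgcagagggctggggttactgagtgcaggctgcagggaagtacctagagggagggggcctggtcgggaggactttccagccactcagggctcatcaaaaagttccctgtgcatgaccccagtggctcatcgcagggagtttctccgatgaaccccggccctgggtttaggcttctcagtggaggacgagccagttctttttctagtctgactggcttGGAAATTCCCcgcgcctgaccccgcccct
Nfkbie: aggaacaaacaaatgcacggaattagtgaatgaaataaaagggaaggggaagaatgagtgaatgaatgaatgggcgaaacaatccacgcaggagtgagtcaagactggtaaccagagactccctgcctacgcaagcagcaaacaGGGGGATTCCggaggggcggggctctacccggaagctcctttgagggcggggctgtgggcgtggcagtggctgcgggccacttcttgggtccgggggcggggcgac

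In the Nfkb2 window a palindromic match with an overlapping shifted match spans the bases from 39 to 29 before the start, and a further match begins 11 bases before it. The other Nfkb2 starts hold 1 match each, GGAATGTCCC, which fits on the opposite strand, and GGGACTTTCC. In Rel the overlapping matches lie 92 to 82 bases before the start, and in Nfkbia the match lies 29 to 20 bases before it. In Nfkbie the match GGGGGATTCC lies 106 to 97 bases before the start. A narrower form, GGG, a pair of free bases, TTT and CC, was searched on both strands. In the windows of these genes each of its matches was also a match of the consensus. It was found for Nfkb2, Rel and Nfkbia but not for Nfkbie, Rela and Nfkbib, against 1.65% of all genes. A match is a description of the letters in the window and does not show binding.

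Set beside the arrays, the 3 genes with the narrower motif, Nfkb2, Rel and Nfkbia, had at least 0.4 more signal on TS1 A. For the 3 without it, Rela, Nfkbib and Nfkbie, the TS1 duplicates lay within 0.032 of each other, although Nfkbie holds the wider consensus. This covers 6 genes and was seen after the values were known, so it is given with no test. The motifs and the step of 0.4 were also chosen with results of these data known. Relb and Nfkbiz, which split the TS1 duplicates as well, and Malt1, which did not, had no window searched. The share of G or C in the windows was 77.6% for Rel, 64.8% for the first start of Nfkb2 and 59.2% for Nfkbia, and it was 70.4% for Rela, 58.0% for Nfkbib and 57.6% for Nfkbie. The part of base composition was not tested.

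The wider pathway was described from lists of 105 genes, of which 95 were measured, with some genes on more than 1 list. The counts below are from the same fit and are to be read beside the 13.5% of all genes called. The shares called were 40% of the I-kappa-B relatives, 33.3% of the CARD and BCL10 module and 27.3% of the IKK list. They were 20.6% of the target genes, and 15.4% each of the receptors and of the TRAF and ubiquitin factors. The MALT1 substrates had 12.5% and the brakes 10%. The lists held 5 to 34 measured genes, and the shares have no test. Among 13 measured receptors and adaptors that signal to NF-kappa-B, limma called 2 higher in TS2 and 0 higher in TS1, with a median difference of 0.055. At an unadjusted p under 0.05 the counts were 2 and 1. Tnfrsf1b, the second receptor of tumour necrosis factor, differed by 1.64 (SE 0.11, limma adjusted p = 0.00187), higher in TS2. Tnfrsf18, the co-stimulatory receptor GITR, was higher by 1.28 (SE 0.27, adjusted p = 0.0437), but was not called in fits that omitted TS1 B, TS2 A or TS2 B, at an adjusted p of 0.0717, 0.183 and 0.106.

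Around MALT1 itself, both protein kinases C of the antigen receptor route were higher in TS1. Of 9 measured genes of the CARD and BCL10 module and its kinases, 1 was higher in TS2 and 2 were higher in TS1, with a median of -0.026. Prkcb, which encodes protein kinase C beta, stood at 10.13 and 10.05 on TS1 A and B, and 5.38 and 6.62 on TS2 A and B. Both TS2 arrays were far below the TS1 arrays, and the difference was -4.09 (SE 0.40, adjusted p = 0.00559). Prkcq, protein kinase C theta, an isoform prominent in T cells, differed by -0.83 (SE 0.096, limma adjusted p = 0.0088), higher in TS1. Fits that omitted TS2 A or TS2 B did not call it, at an adjusted p of 0.0612 and 0.0524. Bcl10, the direct partner of MALT1, stood at 10.31 and 10.23 on TS1 A and B, and 10.30 and 10.24 on TS2 A and B (difference 0.0032, 95% interval -0.23 to 0.23, adjusted p = 0.988). Casp8, a protease that joins the module, was higher in TS2 by 0.42 (adjusted p = 0.0419), but was not called in any of the 4 fits with an array omitted (adjusted p from 0.0814 to 0.210).

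Downstream of the module, some ubiquitin factors and some IKK genes were called, in both directions. Of 13 measured TRAF and ubiquitin factors, 1 was higher in TS2 and 1 in TS1, with a median of 0.14. Birc3, a ubiquitin ligase that is also a target of the pathway, was higher in TS2 by 0.58 (adjusted p = 0.0378). Sharpin, a subunit of the linear ubiquitin ligase, was higher in TS1 (difference -0.49, adjusted p = 0.0259). Neither was called in any of the 4 fits with an array omitted, with an adjusted p from 0.0668 to 0.168 for Birc3 and from 0.0644 to 0.145 for Sharpin.

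Of 11 measured genes of the IKK complex and its activating kinases, 1 was higher in TS2 and 2 in TS1, with a median of -0.0042. Ikbkb, the catalytic subunit of the canonical pathway, differed by 0.13 (adjusted p = 0.405), and Ikbkg, the regulatory subunit NEMO, by -0.12 (adjusted p = 0.491). Chuk was not analysed here. Map3k8, the kinase TPL2 that p105 binds, differed by 1.54 (SE 0.27, limma adjusted p = 0.0264), higher in TS2, but was not called in fits that omitted TS1 A or TS1 B, at an adjusted p of 0.0750 and 0.0985. Map3k7, the kinase TAK1, and its partner Tab3 were higher in TS1, with differences of -0.64 and -0.61 (adjusted p = 0.0339 and 0.0283). Map3k7 was not called when TS1 B, TS2 A or TS2 B was omitted, at an adjusted p of 0.104, 0.165 and 0.0856. Tab3 was not called when any of the 4 arrays was omitted (adjusted p from 0.0663 to 0.141).

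The remaining I-kappa-B relatives and the brakes were few in number. Of 5 measured relatives and accessory proteins, 1 was higher in TS2 and 1 in TS1, with a median of 0.12. Nfkbid, a nuclear family member also called I-kappa-B-NS, stood at 8.49 and 8.44 on TS1 A and B, and 8.97 and 9.04 on TS2 A and B. The lines did not overlap, and the difference was 0.54 (SE 0.089, adjusted p = 0.0222), but Nfkbid was not called in any of the 4 fits with an array omitted (adjusted p from 0.0520 to 0.132). Nkiras1, a small GTPase-like protein that binds I-kappa-B-beta, was higher in TS1 (difference -0.60, adjusted p = 0.0347), but not called when TS1 B, TS2 A or TS2 B was omitted, at an adjusted p of 0.104, 0.174 and 0.0968. Bcl3, a nuclear cofactor of p50 and p52, was bright and overlapped between the lines (difference 0.21, adjusted p = 0.513).

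Among 10 measured deubiquitinases and other brakes, limma called 1 higher in TS2 and 0 higher in TS1, with a median of -0.0072. At an unadjusted p under 0.05 the counts were 2 and 1. The called gene, Cyld, which strips linear and K63-linked ubiquitin chains, was also the only called gene among 8 other substrates of the MALT1 protease, where limma called 1 higher in TS2 and 0 higher in TS1 (also 1 and 0 before adjustment at a p under 0.05), with a median of 0.071. Its log2 intensity was 8.79 and 8.43 on TS1 A and B, and 9.55 and 9.70 on TS2 A and B. Cyld was higher in TS2, the opposite side from Malt1, by 1.01 (SE 0.15, adjusted p = 0.0166). When TS2 A or TS2 B was omitted it was not called, at an adjusted p of 0.0660 and 0.0879. Tnfaip3, which encodes A20, was dim on all arrays, from 5.55 to 5.82 (difference -0.18, adjusted p = 0.30).

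Of 34 measured textbook target genes, 6 were higher in TS2, 1 was higher in TS1 and 27 did not pass. This is 20.6%, against 13.5% of all genes, and the median difference was 0.20, against 0.013 over all genes. Many of the 34 were dim, and signal over background was not examined. With the dimmest 50% of probe sets left out, 15 remained and 6 of these were called, against 2900 of 10194 genes. Ccl3, a chemokine, differed by 2.11 (SE 0.30, limma adjusted p = 0.0155), higher in TS2, but was not called when TS1 A or TS1 B was omitted, at an adjusted p of 0.0579 and 0.0582. Irf1, an interferon regulatory factor, differed by 1.28 (SE 0.19, limma adjusted p = 0.0182), higher in TS2, but was not called when TS2 A or TS2 B was omitted, at an adjusted p of 0.0928 and 0.0762. Ier3, an immediate early gene, differed by -0.98 (SE 0.11, limma adjusted p = 0.00897), higher in TS1. The calls of Ier3, Tnfrsf1b and Prkcb held with each of the 4 arrays left out. Against 7 of the 34 target genes called with all arrays, 4 were called when TS1 B was omitted, 3 when TS2 A was and 2 when TS2 B was.

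**Figure D5:**
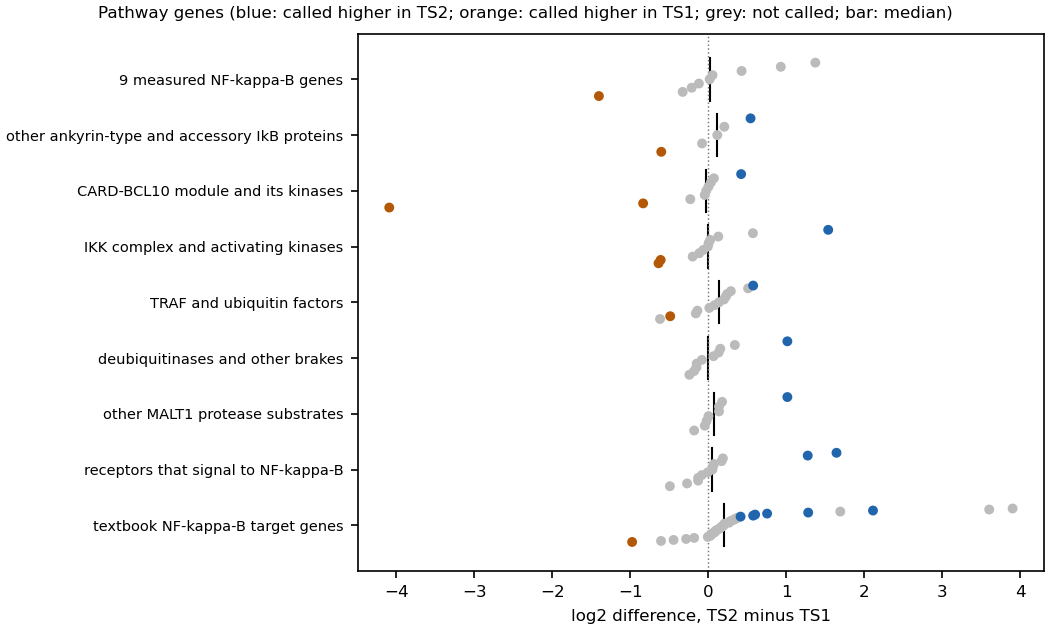
Difference between the lines on the log2 scale (horizontal axis, TS2 minus TS1) of each measured gene, by list (vertical axis), with blue for genes called higher in TS2, orange for genes called higher in TS1, grey for the rest and a bar at each list's median. The medians lie between -0.026 and 0.20, and Prkcb stands alone at the left.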

How the data were processed

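Expression was measured on 4 Affymetrix arrays, 2 each for TS1 and TS2. Per the submitters' processing notes, the authors used Affymetrix Expression Console and RMA, of unstated versions. The table deposited by the authors gives linear intensities for each probe set on each array, although the plan assumed log2 values. RMA normalizes between arrays, so a shift shared by most genes is removed. Detection calls, scan batches and depth are not analysed here.

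Of 35556 probe sets, 21789 named 1 gene in the platform annotation, 1621 several and 12146 none. Symbols were updated by Entrez number through RefSeq (GRCm38.p6) for 21698. The brightest probe set by mean over the 4 arrays stood for a gene, which gave 19938 genes. Log2 intensities were fitted with limma 3.58.1 (lmFit, eBayes; 2 residual and 3.03 prior degrees of freedom) under R 4.3.3, with the line as factor and Benjamini-Hochberg adjustment over all genes. The fit was also run on simulated data with variances drawn from its own prior. That run checks the code and not the assumptions of the model, and its outcome is not given here.

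The members, lists and motifs were chosen with earlier results of these data known. All members are named. From each list up to 3 called genes with the largest difference and no overlap of arrays are named, and always Bcl3, Bcl10, Ikbkb, Ikbkg, Tnfaip3 and Chuk, and 1 further gene that is not reported here. Tnfrsf9, Il6, Il2ra, Tnfrsf1a, Sod2 and the T cell markers Cd3g, Cd3e and Zap70 fall outside this rule. So do Cd4, Cd3d, Cd247, Lat, Cr2, Kit, Fcer1a, Col1a1, Col1a2, Col3a1 and Pdgfra. All of these were picked with their values known. The alternatives were each array omitted in turn, the duplicate letter as a block, other prior variances, centring, quantile normalization, filters on dim probe sets, the mean of a gene's probe sets, no moderation, a stricter threshold and an added 16 before log2.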

Additional observations from a re-analysis of the deposited data

How the results depend on the processing

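Among the 9 genes, differences kept their direction under all alternatives that gave a value, except for 3 that were not called. With 1 array left out in turn, Nfkb2 ran from -0.36 to 0.12 (above 0 without TS1 A), Relb from -0.16 to 0.27 (below 0 without TS1 B) and Rela from -0.047 to 0.083 (below 0 without TS2 A). Of the 9 genes, 1 was called with all arrays, 0 to 2 with 1 array left out, 2 (Malt1 and Nfkbiz) of the 8 left without the dimmest 50% of probe sets, and 0 without moderated variances or at an adjusted p under 0.01. Without TS1 A the 1 gene called was Rel, not Malt1. Over all genes, 2691 were called, 979 to 2198 with 1 array left out, 1666 with the replicate letter as a block, 807 at an adjusted p under 0.01 and 0 without moderation (5862 at an unadjusted p under 0.05 with moderated variances).

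The replicate letters are not known to pair the duplicates: over genes, A minus B in TS1 and in TS2 correlated at -0.029, and 1 of the 9 genes was called with the block too. With the replicate block, called genes went from 2 to 1 among the I-kappa-B relatives, from 2 to 0 among TRAF and ubiquitin factors, from 3 to 2 in the CARD and BCL10 module and among IKK genes, and from 7 to 5 among target genes, with equal counts in the other 3 lists. With 1 array left out, called genes numbered 0 to 1 among the relatives (2 with all arrays), 1 to 2 in the CARD and BCL10 module (3), 0 to 2 among IKK genes (3), 0 to 2 among TRAF and ubiquitin factors (2), 0 to 1 among brakes and among MALT1 substrates (1 each), 1 to 3 among receptors (2) and 2 to 8 among target genes (7). Without moderated variances each of the 8 lists had 0 called. At an adjusted p under 0.01, 0 were called among relatives, IKK genes, TRAF and ubiquitin factors, brakes and MALT1 substrates, and 1 each among receptors and target genes. With an intensity trend in the prior variance, 2 brakes were called. With 1 array left out fewer degrees of freedom remain, and the line with a lone array borrows its spread from the other line. Signal over background was not examined, so differences of dim genes such as Relb and Nfkbie are the least certain in size.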
